A study of Mus musculus with 6 samples.

Results

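The genes described here are the 10 genes of MHC class I and of its peptide loading that were measured in sorted midbrain immune cells of Line 61 mice: the heavy chains H2-K1, H2-D1, H2-Q4, H2-Q7 and H2-T23, the light chain B2m, the peptide transporter subunits Tap1 and Tap2, the chaperone Tapbp and the transcriptional activator Nlrc5. They were picked by gene symbol, and all 10 of them were found among the 32285 genes of each of the 4 expression libraries. Line 61 mice carry human α-synuclein (α-Syn) under the Thy1 promoter, with the transgene on the X chromosome, and the males used here were 12 to 15 weeks old at injection. They were injected on both sides of the striatum with PBS, with monomeric α-Syn or with pre-formed fibrils (PFF) of human α-Syn, and ventral midbrains were collected 6 weeks later. PFF mice were given either AZD1480, an inhibitor of the kinases JAK1 and JAK2, at 25 mg/kg by mouth, or vehicle (VH, 0.1% DMSO), from week 2 for 4 weeks. Live CD45+ cells of 3 to 5 pooled midbrains per sample were sorted and sequenced (scRNA-Seq) in 1 library per condition, named PBS, monomer, PFF + VH and PFF + AZD1480, and the PFF + VH and PFF + AZD1480 libraries carried 4 and 5 antibody hashtags. Every group thus carried the transgene, and the PBS and monomer groups received neither VH nor AZD1480. The line was bred from Line 61 females and B6D2F1 males, so H2 alleles other than those of C57BL/6 could be present, while reads were mapped to mm10, the C57BL/6J genome. The effect of such alleles on the counts was not tested.

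MHC class I shows peptides made inside the cell to CD8 T cells and to receptors of NK cells. The heavy chain, which is classical in H2-K1 and H2-D1 and non-classical in H2-Q4, H2-Q7 and H2-T23, folds with β2-microglobulin, the product of B2m. TAP1 and TAP2 form the pump that brings peptides from the cytosol into the endoplasmic reticulum, and tapasin, the product of Tapbp, holds the empty heavy chain beside this pump. NLRC5 is the activator of class I promoters, where it is recruited by factors bound at an element that includes a CRE-like and a CCAAT-like box, and IRF and NF-κB factors bind upstream of it. Interferons signal through JAK kinases and STAT factors and are the best known inducers of these genes.

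On the mm10 (GRCm38) assembly 8 of the 10 genes lie on chromosome 17, B2m lies on chromosome 2 and Nlrc5 on chromosome 8. H2-K1 spans bases 33996017 to 34000347 on the minus strand of chromosome 17, Tap1 spans bases 34187553 to 34197225 on the plus strand of chromosome 17, B2m spans bases 122147686 to 122153083 on the plus strand of chromosome 2, and Nlrc5 spans bases 94434356 to 94527272 on the plus strand of chromosome 8. RefSeq promoters (GRCm38.p6, from 250 bases before to 50 bases after a transcript start) were found for 8 of the 10 genes, all but Tap2 and Nlrc5. The promoters of 5 genes are printed, 5′ to 3′ on the strand of the gene, because they set 2 heavy chains and the light chain beside 2 loading genes, Tap1 and Tapbp, whose results differed in the treatment comparison. Capitals mark a match to the IRF site, searched as TTTCNNTTC or TTCNNTTTC on both strands. Tap1 and Tapbp have no capitals because neither form was found.
H2-K1 (chr17:34000298-34000597, minus strand): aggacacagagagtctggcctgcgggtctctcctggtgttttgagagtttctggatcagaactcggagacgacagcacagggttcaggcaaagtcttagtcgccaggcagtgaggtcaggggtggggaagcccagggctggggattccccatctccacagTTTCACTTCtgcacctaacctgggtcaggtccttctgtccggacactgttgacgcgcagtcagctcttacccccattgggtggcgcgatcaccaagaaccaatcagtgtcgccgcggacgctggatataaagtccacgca
H2-Q7 (chr17:35438905-35439204, plus strand): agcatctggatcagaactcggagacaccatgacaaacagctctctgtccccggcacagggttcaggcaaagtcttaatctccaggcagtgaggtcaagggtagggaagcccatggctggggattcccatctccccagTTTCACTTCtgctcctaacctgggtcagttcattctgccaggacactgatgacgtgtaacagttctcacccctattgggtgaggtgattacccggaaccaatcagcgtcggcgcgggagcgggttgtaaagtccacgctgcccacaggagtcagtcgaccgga
B2m (chr2:122147437-122147736, plus strand): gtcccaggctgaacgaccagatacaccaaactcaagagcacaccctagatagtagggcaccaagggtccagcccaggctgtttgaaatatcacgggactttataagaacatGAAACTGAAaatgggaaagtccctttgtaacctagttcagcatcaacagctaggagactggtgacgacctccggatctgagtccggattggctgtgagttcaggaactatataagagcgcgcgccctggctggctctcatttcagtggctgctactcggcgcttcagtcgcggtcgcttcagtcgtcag
Tap1 (chr17:34187306-34187605, plus strand): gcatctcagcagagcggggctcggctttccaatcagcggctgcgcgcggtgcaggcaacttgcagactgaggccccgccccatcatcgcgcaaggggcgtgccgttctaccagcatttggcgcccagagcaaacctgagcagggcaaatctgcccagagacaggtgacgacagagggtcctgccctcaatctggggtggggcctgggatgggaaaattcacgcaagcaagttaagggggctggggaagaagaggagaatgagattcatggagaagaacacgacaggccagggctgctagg
Tapbp (chr17:33919228-33919527, plus strand): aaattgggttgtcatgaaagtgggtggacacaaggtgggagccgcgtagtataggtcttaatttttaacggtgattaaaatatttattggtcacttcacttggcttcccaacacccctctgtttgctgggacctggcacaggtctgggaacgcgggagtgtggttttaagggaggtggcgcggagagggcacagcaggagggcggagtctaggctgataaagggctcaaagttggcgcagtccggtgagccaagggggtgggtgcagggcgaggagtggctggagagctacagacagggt

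The IRF letters were present in promoters of 6 of 8 genes (H2-K1, H2-D1, H2-Q4, H2-Q7, H2-T23 and B2m), while 16.8% of 27025 mouse genes held them in promoters of the same length. The letters were TTTCACTTC in H2-K1, H2-D1, H2-Q4 and H2-Q7, TTCTCTTTC in H2-T23 and GAAACTGAA in B2m. NF-κB letters (GGGGATTCC or GGGGATTTC) were present in 4 of 8, again H2-K1, H2-D1, H2-Q4 and H2-Q7, against 0.533% of the 27025 genes, and they did not overlap the IRF letters. The CRE core TGACG was present in 6 of 8 (20.8% of all promoters) and CCAAT in all 8 (37.4%). The STAT letters TTCNNNGAA were present in 0 of 8 (9.55%). These are matches of letters only, and H2-K1, H2-D1, H2-Q4 and H2-Q7 are close copies of each other, so they do not count as separate cases.

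**Figure D1:**
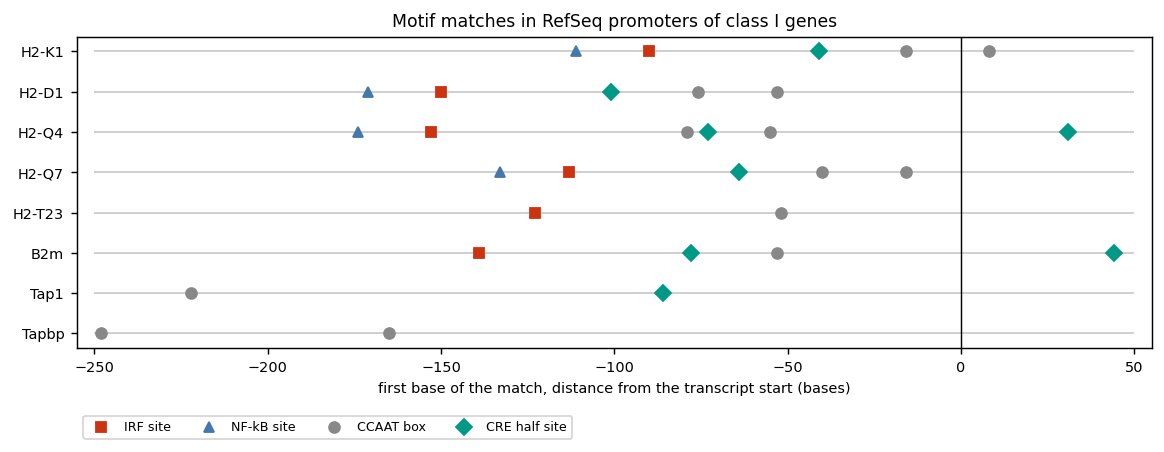
Motif matches in the RefSeq promoters of 8 class I genes, by distance in bases from the transcript start (vertical line at 0, upstream to the left). Each row is a gene and each marker a match on either strand (for H2-K1, the first of 2 annotated starts). In H2-K1, H2-D1, H2-Q4 and H2-Q7 an NF-κB match lies just upstream of the IRF match, and Tap1 and Tapbp show neither.

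The 4 libraries held 13813 to 34828 barcodes, of which 13021 to 34436 passed filters on counts, genes and mitochondrial share. PFF + VH stood apart in depth, with a median of 2306 UMIs (unique molecular identifiers, each counting 1 captured mRNA) per cell against 6616 to 7028 in the other libraries. Cells were placed in classes by the UMIs of marker lists, which gave 11990 to 31785 microglia (MG), 203 to 335 cells called MM (border macrophages and monocytes), 76 to 133 T cells, 23 to 94 NK cells, 27 to 50 B cells and 19 to 103 neutrophils (Neu) per library, while 535 to 1989 cells stayed unassigned. Among the 10 genes with the largest fold over the other classes, own markers numbered 7 in MM and Neu, 5 in NK, 4 in B, 3 in T and 1 in MG, and no marker of another immune class was among them. Pairs of libraries shared 45 to 151 cell barcodes, at most 1.03% of the smaller library. In PFF + VH only 52.0% of cells had a single hashtag, against 81.0% in PFF + AZD1480. A hashtag was treated as a replicate, which is an assumption, and since each condition is 1 library, library and condition cannot be told apart in any comparison of conditions, hashtags included.

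Levels of the class I genes differed between cell classes. Values are counts per 1000000 UMIs of the class (CPM) in each library, and classes were compared with MG by edgeR's quasi-likelihood test on counts summed per class and library, with library as a block, over 8717 genes. H2-K1 stood at 1874, 1912, 1780.03 and 1859 CPM in T cells (libraries in the order PBS, monomer, PFF + VH, PFF + AZD1480), and at 448, 493, 680.4 and 487 CPM in MG. Every T cell value was thus above every MG value. In NK cells H2-K1 ranged from 1929 to 2356 CPM, in MM from 586 to 1046, in B cells from 580.3 to 948 and in neutrophils from 207 to 377. NK and T cells overlapped neither with each other nor with any other class, MM and B cells overlapped with each other and with MG, and neutrophils lay below MG.

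Of the 10 genes 9 were higher in T cells than in MG, where 32.7% of all genes tested were higher. H2-Q7 was at 482 to 570.1 CPM in T cells and at 45.9 to 62.2 CPM in MG, a log2 difference of 3.27 ± 0.22 (SE, adjusted p = 1.95e-11). Nlrc5 was at 164, 128, 60.4 and 138 CPM in T cells of the libraries in the same order, against 17.1, 15.7, 18.6 and 10.9 CPM in MG. The PFF + VH T cells were lowest in Nlrc5, with 15 UMIs in 77 cells, but still above MG of every library (log2 difference 3.09 ± 0.22, adjusted p = 5.17e-11). The log2 difference was 1.88 for H2-K1, 1.63 for Tap1, 1.56 for H2-D1, 1.42 for H2-Q4, 0.93 for Tap2 and 0.86 for H2-T23. B2m passed at 0.41 (adjusted p = 0.0337) but lost the call under each of 10 alternatives, and Tapbp did not pass (-0.05 ± 0.16).

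In NK cells 8 of the 10 were higher than in MG, against 29.6% of all genes, with log2 differences of 3.11 for H2-Q7, 2.18 for Nlrc5, 1.95 for H2-K1, 1.62 for H2-D1, 1.56 for H2-Q4, 1.10 for Tap1, 0.90 for H2-T23 and 0.69 for Tap2. B2m (0.37 ± 0.16) and Tapbp (0.19 ± 0.16) did not pass. With sums per hashtag in place of libraries, where NK cells had 4 sums, all of PFF + VH, the count in NK cells was 5 of 9 tested. Of all 4160 genes in that comparison 840 were higher. PFF + AZD1480 held only 23 NK cells.

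In MM 5 of 10 were higher (23.8% of all genes), with log2 differences of 0.97 ± 0.20 for Tap1, 0.89 ± 0.18 for H2-D1, 0.75 ± 0.23 for Nlrc5, 0.71 ± 0.18 for H2-K1 and 0.62 ± 0.17 for H2-T23. This count fell to 3 without PBS and to 2 without monomer, and over the 9 hashtags of the PFF libraries H2-D1 was higher and B2m lower (-0.33, adjusted p = 0.033). Of all 4160 genes tested over these hashtags 1010 were higher in MM and 967 lower. Border macrophages and monocytes, the parts of MM, differed in H2-D1 in PBS, at 1590.2 and 3612 CPM, though the latter is from 26 cells. In B cells 3 were higher, Tap1 (1.57 ± 0.32), Nlrc5 (1.06 ± 0.42) and H2-K1 (0.50 ± 0.19), and B2m was lower (-0.57 ± 0.16), against 20.5% of all genes higher and 21.1% lower. In neutrophils 2 were higher, Tap1 (1.12 ± 0.36) and H2-D1 (1.10 ± 0.20), and H2-Q7 was lower (-1.05 ± 0.38), against 21.5% and 22.9%. With sums per hashtag, of which B cells had only 3 (10 to 16 cells each) and neutrophils 5, H2-K1 and Nlrc5 turned sign in B cells, to -0.0383 (adjusted p = 0.931) and -0.99 (adjusted p = 0.694), and in neutrophils 1 gene was higher and 5 were lower, with a median of -0.78 over the 9 genes tested. Of all 4160 genes in that neutrophil comparison 838 were higher and 1210 lower, with a median of -0.39. B cell calls numbered 1 without PBS, 2 without monomer and 5 without PFF + VH, and neutrophil calls 1 without PFF + AZD1480.

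**Figure D2:**
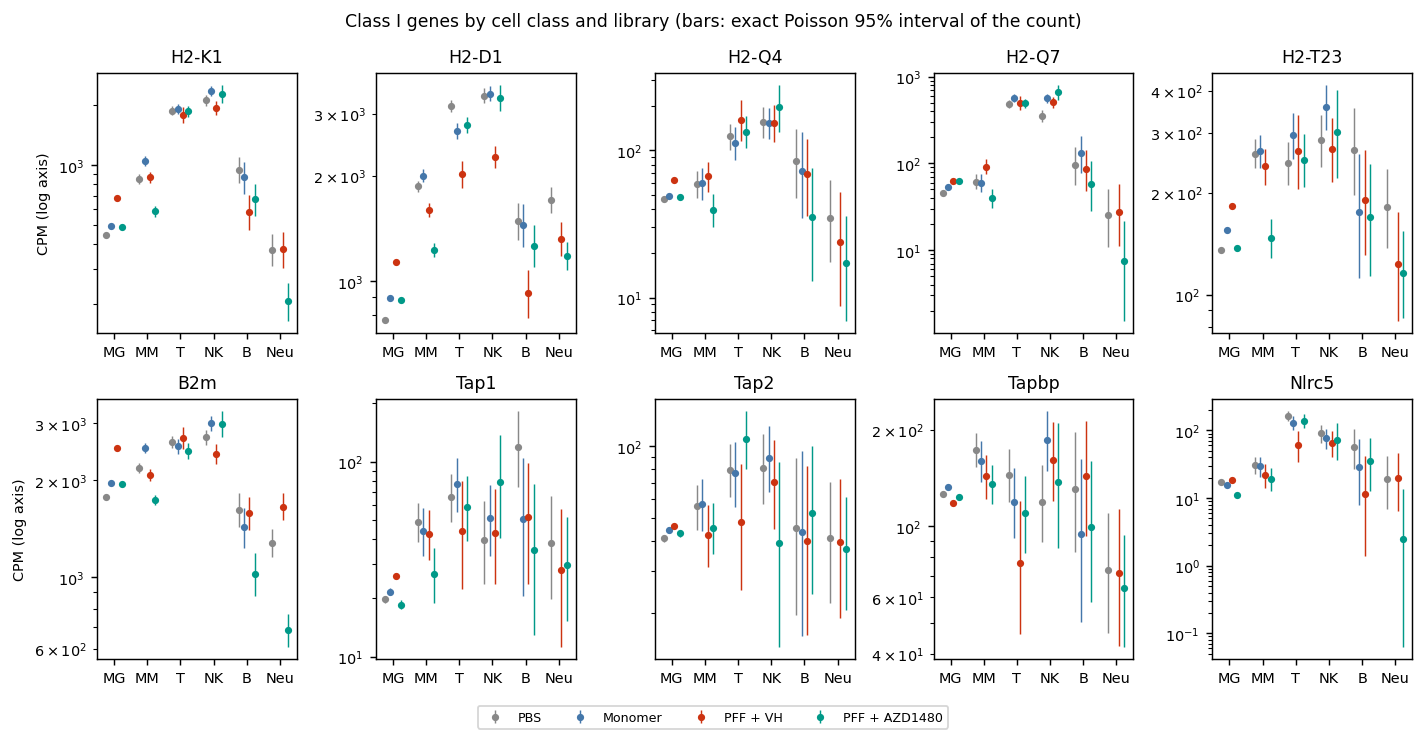
CPM of the 10 genes (log axis, a different range in each panel) in 6 cell classes, with 1 point per library and exact Poisson 95% intervals of the count, for classes with at least 20 cells in a library. T and NK cells stand above MG for H2-K1, H2-D1, H2-Q4 and H2-Q7 in all 4 libraries, while Tapbp shows no such step.

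RNA of microglia was also counted in the other classes, most in PFF + VH. The summed level of the 10 MG markers was 9401 to 11412.5 CPM in MG, 430.1 to 1663 CPM in T cells, 551 to 2160.4 CPM in B cells and 1369.8 to 4383 CPM in neutrophils with at least 20 cells, with the top of the T, B and neutrophil ranges in PFF + VH. All 10 MG markers were detected in T cells and NK cells of every library. Its part in the differences between classes was not tested.

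Over the 23 class sums with at least 20 cells, the levels were compared as a description, since these sums share libraries and depth. Pearson's r of log2 CPM with H2-K1 was 0.96 for H2-Q7, 0.95 for H2-Q4, 0.91 for Nlrc5, 0.90 for H2-T23, 0.85 for H2-D1, 0.80 for B2m, 0.74 for Tap2, 0.63 for Tap1 and 0.49 for Tapbp. Among the 5 heavy chains the lowest r was 0.74, for H2-D1 with H2-Q4. Among 6820 other genes, the closest to H2-K1 were AW112010 (0.967), Plaat3, Npm3, Anxa6 and Bcl2 (0.930). The closest to Nlrc5 were Fyn (0.919), H2-T22 (0.917), Fkbp3, Mrpl9 and Anxa6 (0.889). The closest to Tap1 were Sptbn1 (0.841), Zmat2, Psmb9 (0.836), Sp100 and Dnajc8 (0.815). Psmb9 is an immunoproteasome subunit whose gene overlaps Tap1 in position on the opposite strand.

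The next comparison was between the injected materials in MG, for which each condition is 1 library and no test is possible. Values are ratios of CPM, with 1.5-fold in either direction as the size called. PFF + VH against monomer called 0 of the 10 genes, where 12.1% of 15513 genes passed 1.5-fold. H2-K1 was at 680.4 CPM in PFF + VH (95% Poisson interval 675 to 685) and 493 CPM in monomer (489 to 498), a ratio of 1.38. B2m was at 2508 and 1965 CPM (1.28), H2-D1 at 1132 and 896 CPM (1.26), and Tap1 at 25.9 and 21.5 CPM (1.20). In all, 9 of the 10 ratios were above 1, and Tapbp was at 0.892. The median of the 10 log2 ratios was 0.25, and that of all genes was -0.05. Markers of other cells were also higher in PFF + VH MG than in monomer MG, at 70.02 and 27.6 CPM for border macrophages, 34.8 and 12.1 CPM for monocytes and 83.9 and 8.41 CPM for neutrophils, and their part in the ratios was not tested. The Poisson intervals cover counting error only.

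Monomer against PBS called 0 of 10 as well, where 4.71% of 15215 genes passed. The ratios ran from 0.919 for Nlrc5 to 1.17 for H2-Q7, with a median log2 ratio of 0.14 over the 10 genes and of -0.04 over all genes. Beside these, MG of PFF + AZD1480 stood at 0.986 times monomer for H2-K1, 0.987 for H2-D1, 0.991 for B2m, 0.858 for Tap1, 0.695 for Nlrc5 and 1.15 for H2-Q7. The latter comparison shares the monomer library with the one above.

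In MM, PFF + VH against monomer called 1 of 10, H2-Q7, at 91.4 CPM from 101 UMIs and 59.6 CPM from 69 UMIs (ratio 1.53), where 12.2% of 6100 genes passed. The median log2 ratio was -0.21 over the 10 genes and 0.0022 over all genes. Monomer against PBS called 0 in MM (10.8% of 6718). MM of PFF + AZD1480 against the same monomer library called 7 of 10, all lower, where 779 of 6507 genes passed. The median log2 ratio there was -0.61 over the 10 genes, and TMM scaling called 4 of them. In T cells PFF + VH against monomer called 4 of 10, all lower: Nlrc5 at 0.471, Tap1 at 0.575, Tap2 at 0.628 and Tapbp at 0.642 times monomer, where 23.1% of 2678 genes passed. These T cell values rest on 11 to 19 UMIs in PFF + VH. With a class margin of 2 times Nlrc5 (0.532) and Tapbp (0.519) still passed, and Tap1 and Tap2 had too few counts to be compared. T cells near the class cut, with exactly 3 markers detected or under 2 times the UMIs of the next list, made up 42.9% of T cells in PFF + VH and 15.1% in monomer. Monomer against PBS called 0 in T cells (635 of 4246 genes, 15%).

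Class I levels also differed among MG of the same library. MG were thinned to 1000 UMIs each and split by a list of interferon-induced genes that holds none of the 10, into cells with 3 or more UMIs of the list (interferon-high) and cells with 0 (interferon-low). Interferon-high cells numbered 80, 91, 357 and 48 in the same order of libraries, or 0.614%, 0.685%, 1.285% and 0.410% of MG deep enough to be thinned. All 10 genes were higher in interferon-high MG by edgeR with library as a block, where 6.07% of 15026 genes were higher and 4.36% lower, and each was higher in 4 of 4 libraries. With hashtags in place of libraries (6 interferon-high sums, 4 of PFF + VH and 2 of PFF + AZD1480) 9 passed, and Tap2 was at 0.39 (adjusted p = 0.324). In that fit 458 of 12664 genes were higher.

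Nlrc5 stood at 185, 136, 104 and 114 CPM in interferon-high MG and at 15.5, 14.1, 15.97 and 10.04 CPM in interferon-low MG, ratios of 6.51 to 11.9. The groups did not overlap, and the log2 difference was 3.26 ± 0.13 (SE, n = 4 libraries). Tap1 stood at 72.7, 103.8, 84.2 and 82.0 CPM against 18.7, 20.1, 23.7 and 18.04 CPM, a log2 difference of 2.11 ± 0.15. H2-T23, the ligand of the NK receptor pair of Klrd1 and Klrc1, followed at 1.44 ± 0.09, then H2-K1 at 1.09, H2-Q7 at 0.98, H2-D1 at 0.89, H2-Q4 at 0.81, B2m at 0.73, Tap2 at 0.72 and Tapbp at 0.66. In MG with 2000 to 6000 UMIs, where interferon-high sums of only 2 libraries (monomer and PFF + VH) had enough cells, 7 of 10 passed. Of all 13886 genes in that fit 240 were higher. H2-Q4 (0.57), Tap2 (0.77) and Tapbp (0.66) did not pass there. The fit gave all genes 1 shared quasi-likelihood dispersion, so its SE and p-values do not follow the spread of a single gene, and the ratios by library show that spread.

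Other genes of the pathway passed in part. Of 12 tested of 16 other class I or class I-like chains 5 were higher in interferon-high MG, led by H2-M2 (4.34), H2-T24 (2.22) and H2-T22 (1.52), and 0 were lower. Of 12 genes of peptide supply 8 were higher, led by Psmb9 (1.44), Psme2 (1.28) and Psmb10 (1.11), a pair of immunoproteasome subunits and a subunit of its activator, while 0 were lower. Of 23 regulators 5 were higher, among them Stat2 (3.08) and the JAK inhibitor protein gene Socs1 (2.26), and 2 were lower, Ifngr1 (-0.41) and Jak1 (-0.25). The median log2 difference was 0.93 over the 10 genes and -0.05 over all genes tested. Monocyte markers moved with the split, at 113.5 to 159 CPM in interferon-high MG and 10.5 to 29.98 CPM in interferon-low MG, border macrophage markers stood at 35.1 to 137 and 23.4 to 63.6 CPM, and MG markers at 7013 to 8740 and 9473 to 11513 CPM. Of the 10 monocyte markers 4, 6, 8 and 6 were detected in interferon-high MG of PBS, monomer, PFF + VH and PFF + AZD1480. Their sum thus rests on part of the list. The part of all these markers in the result was not tested.

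The other split was by genes of disease-associated microglia (DAM), again a list without any of the 10. DAM-high MG made up 4.19%, 3.97%, 15.05% and 14.5% of MG deep enough to be thinned, again in the order PBS, monomer, PFF + VH, PFF + AZD1480. Here 7 of the 10 genes were higher, where 21.0% of 14873 genes were higher and 17.9% lower. H2-D1 stood at 1175, 1334, 1518 and 1284 CPM in DAM-high MG of the 4 libraries and at 725, 823, 961 and 729 CPM in DAM-low MG, ratios of 1.58 to 1.76, and the groups did not overlap (log2 difference 0.82 ± 0.05, edgeR adjusted p = 9.84e-08). H2-K1 followed at 0.73 ± 0.05, H2-Q7 at 0.66 ± 0.07, B2m at 0.64 ± 0.06, Nlrc5 at 0.39 ± 0.09, H2-T23 at 0.34 ± 0.04 and H2-Q4 at 0.29 ± 0.07, the last higher in 3 of 4 libraries. The call of Nlrc5 was lost with DAM-high set at 4 or more UMIs (0.16, adjusted p = 0.369), and that of H2-Q4 in cells of 2000 to 6000 UMIs (0.35, adjusted p = 0.0527). Tap1 (0.18, adjusted p = 0.0514) and Tapbp (0.10, adjusted p = 0.102) did not pass, though of 12 alternatives 6 called Tap1 and 2 called Tapbp, all of them higher. With cells thinned to 2000 UMIs Tap1 was at 0.29 (adjusted p = 0.00166). Tap2 differed by -0.0026 ± 0.06. The log2 differences are after edgeR's TMM scaling and come out higher than the ratios of plain CPM, which for Nlrc5 ran from 1.00 to 1.58 and for Tap2 were below 1 in 3 of 4 libraries. The median log2 difference was 0.37 over the 10 genes and -0.01 over all genes. Border macrophage markers summed to 36.8 to 99.98 CPM in DAM-high and 21.6 to 51.4 CPM in DAM-low MG, dendritic cell markers to 21.97 to 49.9 and 12.1 to 22.2 CPM, B cell markers to 41.3 to 76.5 and 127 to 168 CPM, and MG markers to 6316 to 8365 and 10438 to 11737 CPM, and their part in the result was not tested. Genes of the interferon list also moved with this split, with 13 of 14 tested higher in DAM-high MG and a median log2 difference of 0.99.

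Of the other class I chains 4 were higher and 3 lower in DAM-high MG, with H2-M2 (3.97), H2-Q6 (0.62) and H2-M3 (0.56) at the top and the CD1 gene Cd1d1 (-0.61), the iron regulator gene Hfe (-0.42) and the IgG receptor gene Fcgrt (-0.23) lower. Of 12 peptide supply genes 7 were higher and 0 lower, led by the endoplasmic reticulum chaperones Hspa5 (0.55) and Calr (0.51) and by Psme2 (0.49). Of 23 regulators 6 were higher and 5 lower, with a median of -0.06, beside the 21.0% and 17.9% of all genes. Ifnar1 (0.46) and Nfkb1 (0.32) were among the higher and Ifngr1 (-0.41), Irf2 (-0.33) and Nfyb (-0.24) among the lower.

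**Figure D3:**
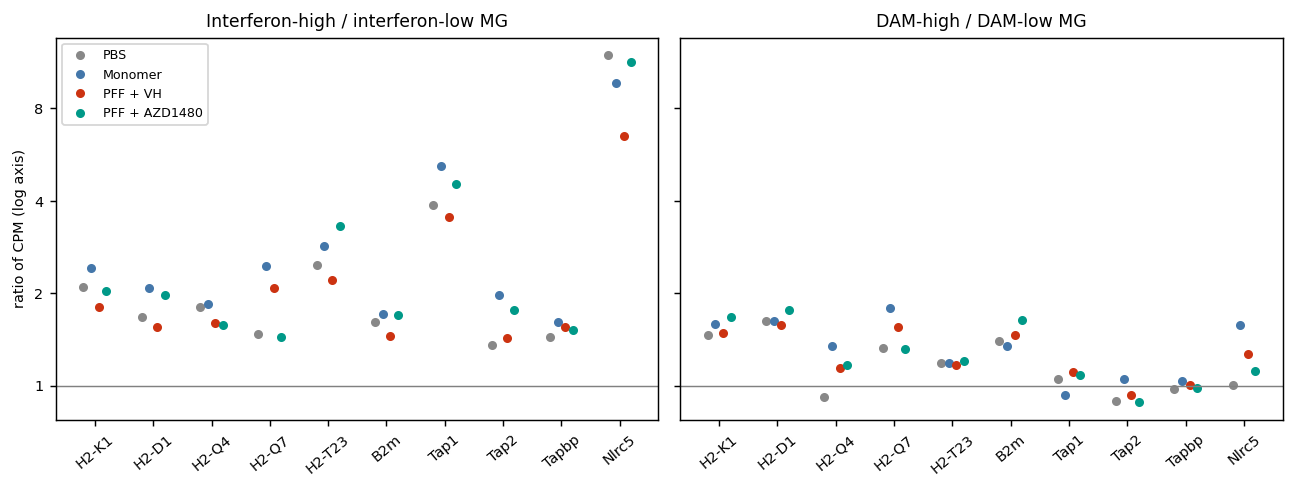
Ratio of CPM between interferon-high and interferon-low MG (left) and between DAM-high and DAM-low MG (right), on a log axis, with 1 point per library and a grey line at 1. On the left every point lies above 1, with Nlrc5 at 6.51 to 11.9 and Tap1 at 3.55 to 5.18. On the right H2-K1, H2-D1, H2-Q7, H2-T23, B2m and Nlrc5 lie above 1 in all 4 libraries, and Tap2 and Tapbp lie around it.

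The comparison with hashtags sets PFF + AZD1480 against PFF + VH, where treatment and library cannot be told apart. In MG 7 of the 10 were lower in PFF + AZD1480 than in PFF + VH and 0 were higher, by edgeR on counts summed per hashtag (4 against 5), where 14.8% of 13708 genes were lower and 12.2% higher. The median log2 difference was -0.48 over the 10 genes and -0.0018 over all genes. Of the 10, 6 had every PFF + AZD1480 hashtag below every PFF + VH hashtag, which held for 10.1% of 13342 genes with at least 100 counts. In these sums fewer expressing cells and less RNA per cell cannot be told apart.

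Among the heavy chains, H2-K1 stood at 728, 793, 659.9 and 653 CPM in the 4 hashtags of PFF + VH and at 469, 585, 467, 412 and 488 CPM in the 5 of PFF + AZD1480. The groups did not overlap, and the level was 0.659 times that of PFF + VH (log2 difference -0.60 ± 0.09 (SE), adjusted p = 0.000755). H2-T23 stood at 189, 199.6, 183 and 181 CPM against 133, 148, 135, 128 and 138 CPM. This was the tightest of the chains, with no overlap and a difference of -0.52 ± 0.05 (adjusted p = 6.72e-05). H2-Q4 stood at 59.2, 70.7, 62.2 and 58.1 CPM against 51.0, 56.1, 47.1, 41.9 and 52.3 CPM, without overlap (-0.39 ± 0.09, adjusted p = 0.00774), and with counts thinned to 1000 UMIs per cell its adjusted p was 0.0528.

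H2-D1 stood at 1213, 1425, 1043 and 1066 CPM in PFF + VH and at 848, 1072, 820.1, 724 and 974 CPM in PFF + AZD1480. It was lower (-0.47 ± 0.12, adjusted p = 0.0110), but hashtag 2 of PFF + AZD1480 lay above the lower PFF + VH hashtags. H2-Q7 stood at 59.8, 83.7, 56.7 and 54.5 CPM against 59.9, 78.5, 52.3, 45.1 and 92.8 CPM. The range of PFF + VH lay inside that of PFF + AZD1480, and the difference of -0.02 ± 0.19 (95% interval -0.44 to 0.40, adjusted p = 0.951) leaves room for changes in both directions. In cells of 2000 to 6000 UMIs it was at -0.49 (adjusted p = 0.146).

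H2-Q7 and H2-D1 also spread more between hashtags than most genes of like level. H2-Q7 had a coefficient of variation of 21.2% in PFF + VH and 29.8% in PFF + AZD1480, above 98.3% of 2050 and 99.4% of 1995 genes of like level. H2-D1 had 14.8% and 15.4%, above 93.5% and 96.7% of like genes, while Tapbp had 3.40% and 4.37%. Hashtag 2 was the highest of the PFF + VH hashtags for H2-K1, H2-D1, H2-Q4, H2-Q7, H2-T23 and B2m. In PFF + AZD1480 hashtag 2 was also the highest for H2-K1, H2-D1, H2-Q4, H2-T23 and B2m, while another hashtag was higher for H2-Q7. H2-Q6, the neighbour of H2-Q7 and nearly identical to it, was lower (-0.56 ± 0.12, adjusted p = 0.00459), and reads of H2-K1, H2-D1, H2-Q4, H2-Q6 and H2-Q7 can be split or lost between these copies, so the values of single chains are uncertain.

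B2m, the light chain, stood at 2609, 2799, 2663 and 2479 CPM in PFF + VH and at 1882, 2249.9, 1937, 1784 and 1902 CPM in PFF + AZD1480. Every PFF + AZD1480 hashtag was lower (-0.49 ± 0.07, adjusted p = 0.000668).

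Tap1 stood at 25.8, 22.6, 27.2 and 26.5 CPM in PFF + VH and at 18.7, 19.1, 15.4, 19.6 and 15.9 CPM in PFF + AZD1480. It was lower without overlap (-0.56 ± 0.08, adjusted p = 0.000607). Tap2 stood at 47.4, 41.97, 45.9 and 48.4 CPM against 43.5, 43.3, 44.1, 45.0 and 35.5 CPM, and Tapbp at 125, 117, 118 and 116 CPM against 121, 130.2, 124, 118 and 129 CPM. Both overlapped between groups, with differences of -0.16 ± 0.07 for Tap2 (95% interval -0.31 to -0.0121, adjusted p = 0.102) and 0.01 ± 0.04 for Tapbp (-0.08 to 0.11, adjusted p = 0.880). The interval of Tapbp does not include a change of the size seen in Tap1.

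Nlrc5, the activator, had the largest log2 difference of the 10. It stood at 17.4, 18.2, 21.7 and 17.1 CPM in PFF + VH and at 10.9, 11.7, 7.36, 12.4 and 10.9 CPM in PFF + AZD1480, from 71 to 326 UMIs per hashtag. The level was 0.559 times that of PFF + VH, without overlap (-0.84 ± 0.13, adjusted p = 0.000738).

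**Figure D4:**
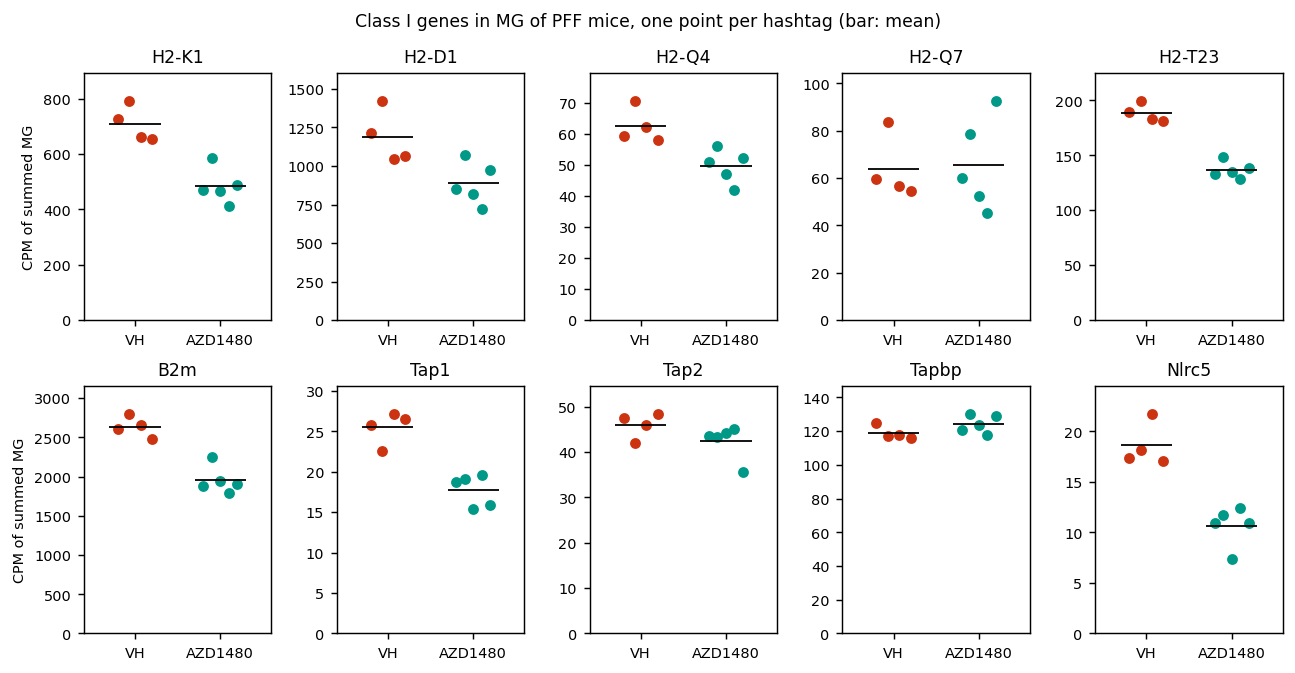
CPM of the 10 genes in MG, with 1 point per hashtag and a bar at the mean, for the 4 hashtags of PFF + VH (VH) and the 5 of PFF + AZD1480 (AZD1480). Each panel has its own axis, which starts at 0. H2-K1, H2-Q4, H2-T23, B2m, Tap1 and Nlrc5 show no overlap, and H2-D1, H2-Q7, Tap2 and Tapbp overlap.

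Of 12 other chains tested in MG 4 were lower, H2-M2 (-1.56), H2-Q6 (-0.56), H2-M3 (-0.48) and H2-T22 (-0.48), and 0 were higher. Of 12 peptide supply genes 5 were lower, the immunoproteasome subunits Psmb9 (-0.63), Psmb8 (-0.48) and Psmb10 (-0.29) and the proteasome activator subunits Psme1 (-0.62) and Psme2 (-0.50), and 0 were higher. Calr, Canx, Pdia3, Sec61a1, Hspa5, Erap1 and Tapbpl, the general chaperones, the translocon, a trimming peptidase and a tapasin-related protein, did not pass, with values from -0.14 to 0.05. Of 23 regulators 5 were lower, among them Irf9 (-0.85), Socs1 (-0.83) and Stat2 (-0.72), and 8 were higher, led by Nfkb1 (0.39), Ifngr1 (0.26) and Tyk2 (0.18), beside the 14.8% and 12.2% of all genes. Of 3 receptors of class I with enough counts, Klrd1 was lower (-0.86), and 14 of 15 genes of the interferon list were lower, with a median of -1.97.

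Markers of other cells moved with these results. In MG the summed levels of MG markers were 8911 to 10215 CPM in PFF + VH and 9155 to 9973 CPM in PFF + AZD1480. Border macrophage markers summed to 52.3 to 61.4 against 26.1 to 45.2 CPM, monocyte markers to 30.5 to 32.99 against 12.6 to 19.2, T cell markers to 15.6 to 22.7 against 7.88 to 13.1 and NK markers to 9.28 to 14.1 against 2.65 to 4.46 CPM, with all 10 markers of each list detected in both groups. Astrocyte markers stood at 109.97 to 131.8 against 130.5 to 150.2 CPM, with little overlap, while B cell markers (89.0 to 104 against 79.6 to 135 CPM) and neutrophil markers (59.3 to 68.3 against 59.3 to 83.8 CPM) overlapped. Gm42418, a gene that overlaps ribosomal RNA, was at 11039 to 11928 CPM in PFF + VH and 8295 to 8603 CPM in PFF + AZD1480, and 7 of the 10 genes were lower with it left out (2020 of all 13707 genes). The part of the markers in the class I differences was not tested. The interferon list summed to 227 to 235 CPM in PFF + VH and 53.3 to 97.4 CPM in PFF + AZD1480. With interferon-low MG alone 7 of the 10 genes were lower, with a median of -0.44, and with DAM-low MG alone 8 were lower, with Tap2 added (-0.25, adjusted p = 0.0256). Of all genes tested, 1817 of 13335 were lower in the interferon-low fit and 1452 of 12210 in the DAM-low fit. Interferon-low cells were most of MG, 23898 of 31785 in PFF + VH and 11019 of 11990 in PFF + AZD1480 before hashtags were assigned. The interferon-low fit thus largely repeats that of all MG. In MG of 2000 to 6000 UMIs 7 were lower (617 of all 11445 genes), and these 3 settings were chosen after the data had been seen.

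**Figure D5:**
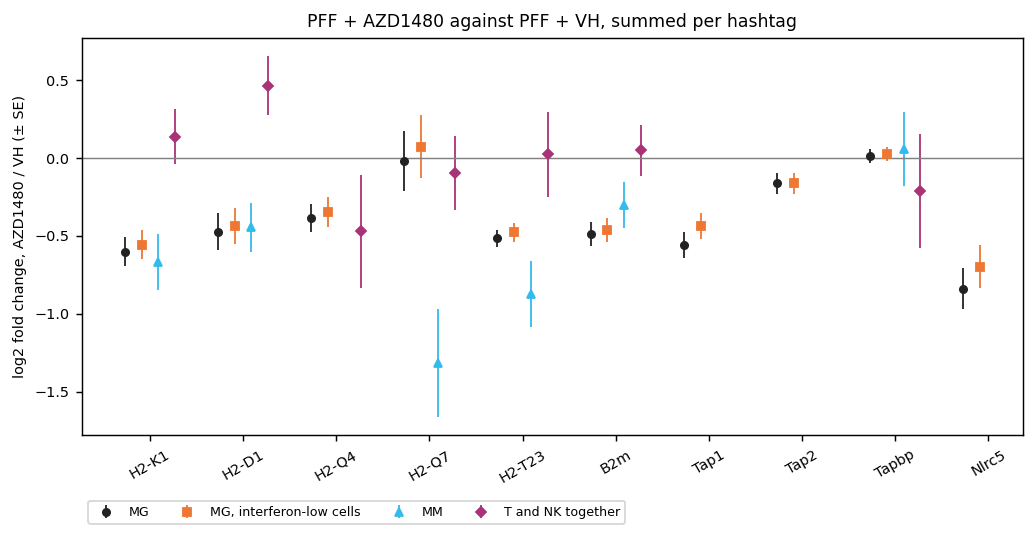
Fitted log2 difference between PFF + AZD1480 and PFF + VH (below 0 is lower with AZD1480), with SE, for MG, interferon-low MG, MM and T and NK cells together. A gene without a point had too few counts to be tested. In MG 7 of 10 genes lie below 0 by more than 4 SE and Tapbp lies at 0, and the points of interferon-low MG lie beside those of all MG.

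In MM 0 of the 6 genes with enough counts passed, where 0.399% of 3763 genes did (15 genes, and 446 at an unadjusted p below 0.05). H2-T23 stood at 249, 233, 330.3 and 236 CPM in PFF + VH and at 132, 146, 101, 172 and 127 CPM in PFF + AZD1480. The groups did not overlap, and the difference was -0.87 ± 0.21 (adjusted p = 0.0761). H2-K1 stood at 952, 709.9, 933 and 838 CPM against 665, 482, 606, 441 and 565 CPM, also without overlap (-0.67 ± 0.18, adjusted p = 0.114). The share of all MM genes without overlap was not counted.

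The other MM values were -1.32 ± 0.35 for H2-Q7 (adjusted p = 0.0995, from 3 to 28 UMIs per hashtag), -0.44 ± 0.16 for H2-D1 (adjusted p = 0.231), -0.30 ± 0.15 for B2m (adjusted p = 0.441, 1982 to 2204 against 1415 to 1939 CPM), and 0.06 ± 0.24 for Tapbp. DESeq2 called 2 of the 6, H2-K1 and H2-T23, and edgeR without a filter on low counts called H2-Q7 alone. The make-up of MM differed between the groups, with monocyte markers at 772 to 2761 CPM in PFF + VH and 137 to 1406 CPM in PFF + AZD1480 and border macrophage markers at 5305 to 8433 and 7858 to 13275 CPM. The difference between PFF + AZD1480 and PFF + VH in MM departed from that in MG for 0 of the 10 genes (27 of 5988 genes, 0.451%). H2-Q7 was at -1.25 ± 0.39 (adjusted p = 0.203).

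T cells alone kept 3 hashtags with at least 10 cells in PFF + VH and 2 in PFF + AZD1480, under the minimum of 3 per group. A fit of these, added after the data had been seen, called 0 of 5 genes tested. T and NK cells together kept 4 and 3 hashtags, and 0 of 7 genes tested passed, where 2.99% of 2177 genes did. H2-D1 stood at 2642, 2498, 1806 and 1835 CPM in PFF + VH and at 3767, 2566 and 2782 CPM in PFF + AZD1480. The groups overlapped, and the difference was 0.47 ± 0.19 (adjusted p = 0.262), while H2-K1 differed by 0.14 ± 0.18, B2m by 0.05 ± 0.16 and H2-Q7 by -0.10 ± 0.24.

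For H2-D1 the difference between PFF + AZD1480 and PFF + VH was higher in T and NK cells than in MG. The gap was 0.87 ± 0.20 on the log2 scale (adjusted p = 0.0155), and 1.04% of 5988 genes passed this test. The other 9 did not pass, with H2-K1 at 0.66 ± 0.21 (adjusted p = 0.131) and B2m at 0.44 ± 0.18 (adjusted p = 0.308). The mix of these cells differed between the groups: NK markers summed to 4155 to 6850 CPM in PFF + VH and 593 to 1079 CPM in PFF + AZD1480, T markers to 1196 to 3466 and 3939 to 5249 CPM, and MG markers to 1055 to 1974 and 641 to 802 CPM. The part of this mix in the H2-D1 difference was not tested.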

How the data were processed

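Single cells from 4 libraries were measured by droplet scRNA-Seq, with antibody hashtag reads for the PFF + VH and PFF + AZD1480 libraries. The authors aligned reads to mm10 and counted UMIs per gene and droplet with Cell Ranger (7.0.1 per the file headers), and the deposited values are these raw, filtered-barcode counts, with no normalization. Hashtag counts are likewise as deposited. Kept cells had 500 to 15000 UMIs, between 250 and 5000 detected genes, and no more than 10% of counts from mitochondrial genes. A cell joined a class with at least 3 of the 10 markers of its list and more UMIs of that list than of any other, and other cells stayed unassigned. No doublet caller was run, and droplets with several hashtags were left out of hashtag sums. HTODemux (Seurat 5.3.0, positive quantile 0.99) assigned cells to hashtags.

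Counts were summed per class and hashtag (at least 10 cells, at least 3 hashtags per group) or per class and library (at least 20 cells). All adjusted p-values are from the quasi-likelihood test of edgeR 4.0.16 (R 4.3.3) with TMM scaling, its filter on low counts and Benjamini-Hochberg adjustment over all genes tested, at 0.05, unless DESeq2 1.42.0 is named. Intervals of log2 differences are 95% t intervals on the degrees of freedom of the edgeR fit, with SE taken as the difference over the root of its F statistic. These p-values measure the spread between hashtags or libraries, except in the interferon-high fit, where all genes share 1 dispersion. Each hashtag was taken as 1 sample because their number equals that of the stated replicates, which no source states outright. Tables were made with Python 3.11.15, numpy 2.4.6, scipy 1.17.1, pandas 2.3.3 and matplotlib 3.10.9. Statistical scripts were tested on simulated data. Hashtag numbers shared by both libraries were not taken to pair the samples. Deviations of same-numbered MG sums from their group mean correlated at -0.05 to 0.03 over 13658 genes. A correlation over all genes cannot exclude pairing at single genes. The same hashtag number was the highest in both libraries for H2-K1, H2-D1, H2-Q4, H2-T23 and B2m in MG. Single libraries were compared by CPM ratio, with at least 50 counts in both together.

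Named genes were the 10 members, up to 3 genes in each direction of each pathway list past the threshold, genes needed to count a list, and the 5 genes most like H2-K1, Tap1 and Nlrc5 over the class sums. The members, lists and motif letters were chosen with earlier results of these data known. Alternatives covered DESeq2, RLE scaling, the count filter, hashtag callers, depth, class margins and single hashtags or libraries left out. Dendritic cells (3 to 14 per library) entered no test. The background percentage of T cells in monomer against PBS is printed as 15%, with its counts. Reads of overlapping genes can be shared, as for Tap1 with Psmb9, B2m with Patl2 and Tapbp with Zbtb22. Values of 1 gene of the regulator list are not reported here.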

Additional observations from a re-analysis of the deposited data

Results flagged for a closer look

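A single hashtag stood far from the others in 4 of 50 groups of hashtags tested, and chance gives about 1 in 20. In MG of PFF + AZD1480, Tap2 was at 35.5 CPM in hashtag 5 and at 43.3 to 45.03 CPM in the others. In MM of PFF + VH, hashtag 3 was high for H2-T23, at 330.3 CPM against 233 to 249 CPM, and for B2m, at 2204 CPM against 1982 to 1987 CPM. In T and NK cells of PFF + VH, Tap2 was at 37.3 CPM in hashtag 4, from 4 UMIs, and at 80.1 to 86.4 CPM in the others. For H2-D1 the difference between PFF + AZD1480 and PFF + VH was higher in T and NK cells than in MG, by 0.87 on the log2 scale (edgeR adjusted p = 0.0155).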

How the results depend on the processing

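In MG the 7 lower calls in PFF + AZD1480 ranged from 6 to 8 over all alternatives and stayed at 7 with any hashtag left out. The replicate block on hashtag number, which keeps only numbers found in both libraries, gave 7 in MG, 0 in MM and 0 in T and NK cells, and it changed no call. In MM, DESeq2 called 2 members and no filter on low counts called 1, against 0. With sums per hashtag in place of libraries, MG and MM had all 9, T cells 5, NK cells 4 (all of PFF + VH), B cells 3 and neutrophils 5, and the calls against MG numbered 2 in MM, 5 in NK cells, 1 in B cells and 6 in neutrophils (1 higher and 5 lower, against 2 higher and 1 lower over the libraries). Of all 4160 genes tested per hashtag 1977 were called in MM, 1865 in NK cells, 1441 in B cells and 2048 in neutrophils. In B cells no filter gave 2 and a minimum of 1000 UMIs gave 2. With 1 library left out, calls ranged from 2 to 5 in MM (2 without monomer, 3 without PBS), from 1 to 5 in B cells (1 without PBS, 2 without monomer) and from 1 to 3 in neutrophils (1 without PFF + AZD1480). For PFF + VH against monomer, a minimum of 200 counts removed the called genes before any ratio was taken, which left 0 in MM and 0 in T cells, and a class margin of 2 times left 2 in T cells. The causes were not tested.

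Signs turned under some alternative in 24 of the 93 pairs of a gene and a comparison, of which 2, H2-K1 and Nlrc5 in B cells, were called as reported. H2-Q7 in MG was at 0.0736 in interferon-low and 0.16 in DAM-low cells, -0.49 in cells of 2000 to 6000 UMIs (edgeR adjusted p = 0.146), -0.16 with the replicate block (0.0721), and from -0.15 to 0.15 with a hashtag left out. The block also drops hashtag 5 of PFF + AZD1480, so blocking and that omission cannot be told apart. Tapbp in MG was at -0.0285 with MULTIseqDemux, -0.00048 with hashtags centred within cells and -0.0156 in DAM-low cells, and from -0.0109 to 0.0387 with a hashtag left out. Tapbp in MM was at -0.14 and -0.0640 with these callers, and from -0.0903 to 0.14 with a hashtag left out. In T and NK cells, H2-Q7 was at 0.18 with hashtags centred within cells and 0.0838 with the class margin, H2-T23 at -0.0166 with no filter and -0.17 with the margin, and B2m at -0.00063 with no filter and -0.21 thinned to 1000 UMIs. With a hashtag left out, these ran from -0.25 to 0.0334, -0.0610 to 0.14 and -0.0480 to 0.14, H2-K1 from -0.0270 to 0.25 and Tapbp from -0.40 to 0.13. Tap2 in DAM-high MG was at 0.0012 with DESeq2, 0.00033 with RLE scaling, 0.0081 at 4 or more UMIs, 0.0406 with cells thinned to 2000 UMIs and 0.0680 in cells of 2000 to 6000 UMIs, and from -0.0385 to 0.0224 with a library left out. The DAM count of 7 ran from 6 to 9 over its alternatives.

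Against MG, these sums per hashtag turned H2-Q4 to -0.10, H2-Q7 to -0.19, B2m to -0.33 (called, edgeR adjusted p = 0.0327) and Tap2 to -0.22 in MM, B2m to -0.32 in NK cells and H2-T23 to -0.30 in neutrophils. In B cells the 3 sums turned H2-K1 to -0.0383, H2-D1 to -0.32, H2-Q4 to -0.37, H2-Q7 to -0.17, Tapbp to 0.41 and Nlrc5 to -0.99. The class margin gave -0.0396 for H2-Q7 in MM, and no filter gave -0.0132 for Tapbp in NK cells, -0.21 for Tap2 in B cells and -0.0280 for Nlrc5 in neutrophils. Tap2 in B cells was at -0.0629 with at least 1000 UMIs. With a library left out, B2m in MM ran from -0.0030 to 0.20, Tap2 in B cells from -0.13 to 0.0560, Tapbp in B cells from -0.31 to 0.0040 and Nlrc5 in neutrophils from -0.18 to 0.55.

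Settings on interferon-low, DAM-low and 2000 to 6000 UMI cells, and counts thinned to 1000 UMIs, were chosen after seeing the data. Several alternatives for T cells and for T and NK cells, and the comparisons of dendritic cells, were not run, for want of cells. Depth limits the smallest classes, where Nlrc5 had 0 UMIs in monomer neutrophils and Tap1 had 6 in PFF + AZD1480 B cells.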

Other observations

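H2-Q1, a further chain of the Q region, was picked out after its values in MG had been seen. It stood at 0.716, 0.968, 0 and 0.105 CPM in the 4 hashtags of PFF + VH and at 1.37, 1.29, 1.24, 0.920 and 2.78 CPM in the 5 of PFF + AZD1480. The lowest PFF + AZD1480 hashtag fell within the PFF + VH range, and the difference of PFF + AZD1480 minus PFF + VH did not pass (1.67 ± 0.61, edgeR adjusted p = 0.0593). All of these levels are very low, so the difference rests on few UMIs.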
